A study of Mus musculus with 15 samples.

Results

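miR-146a and miR-146b are a pair of paralogous microRNAs, made from separate hairpins, and their 4 mature arms were followed here in small RNA libraries of Kupffer cells, the macrophages that reside in the mouse liver. The arms are mmu-miR-146a-5p, mmu-miR-146a-3p, mmu-miR-146b-5p and mmu-miR-146b-3p (mmu, mouse, left out below), found by name among the 248 mature miRNAs listed in the deposited tables. The 15 libraries came from ob/ob mice of 9 weeks (n = 3), C57BL/6J mice (wt) of 9 weeks (n = 4), ob/ob mice of 14 weeks (n = 4) and wt mice of 14 weeks (n = 4). The ob/ob mouse lacks functional leptin and becomes obese, and the series concerns obesity-associated insulin resistance. The labels give no treatment, no sex and no method of cell isolation, and they do not tie the replicates to separate animals, so the p-values below measure the spread between libraries, which may be technical. The question asked of the miR-146 arms is how far each paralogue and each arm differed with the ob/ob genotype at each age.

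In the usual account, signals through Toll-like and interleukin-1 receptors activate the transcription factor NF-κB, which switches on the gene of miR-146a. The mature miR-146a-5p then represses Irak1 and Traf6, adaptors of the same receptors, and so closes a negative feedback loop known best from monocytes and macrophages. miR-146b-5p shares the seed, the stretch by which a miRNA recognises its targets, and is induced by inflammatory signals as well. Of each hairpin, one arm is usually loaded onto Argonaute as the guide while the opposite arm is degraded.

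The sequences show how near the paralogues are, and which bases a read must hold to tell them apart. Mature and hairpin sequences are from RefSeq (GRCm38.p6), written 5′ to 3′, with the seed (bases 2 to 8) in capitals in the mature arms and both mature arms in capitals in the hairpins.
miR-146a-5p: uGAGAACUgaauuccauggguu
miR-146b-5p: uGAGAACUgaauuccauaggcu
miR-146a-3p: cCUGUGAAauucaguucuucag
miR-146b-3p: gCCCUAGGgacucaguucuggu
Mir146 hairpin: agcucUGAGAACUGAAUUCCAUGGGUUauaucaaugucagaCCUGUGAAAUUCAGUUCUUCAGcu
Mir146b hairpin: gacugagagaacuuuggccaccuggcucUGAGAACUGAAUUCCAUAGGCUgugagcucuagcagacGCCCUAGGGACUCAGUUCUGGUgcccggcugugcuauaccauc

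Each of the 4 arms is 22 bases long. The 5p arms share their first 17 bases, the seed GAGAACU included, and differ only by G18A and U21C, written as the base of miR-146a-5p, the position from the 5′ end and the base of miR-146b-5p. A read that ends before base 18 fits both, and no source used here gives how such reads were assigned. The 3p arms differ at 18 of 22 positions and have unlike seeds. Among the 218 listed miRNAs with a RefSeq sequence, each 5p arm shared its seed with its paralogue only, and neither 3p seed occurred in another listed miRNA. The Mir146 hairpin, which gives miR-146a, lies on the minus strand at chr11:43374397-43374461, overlaps no other gene of the GENCODE vM21 annotation and is 11021 bases from the nearest, the lincRNA Gm12148. The Mir146b hairpin lies on the plus strand at chr19:46342762-46342870, within the protein-coding gene Mfsd13a (chr19:46341121-46375252, plus strand). It overlaps 0 of the annotated exons of that gene and sits in an intron of the 1 transcript that spans it, between the exons chr19:46341121-46341170 and chr19:46356880-46356984.

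Levels are given in RPM, taken as reads per 1000000 reads. Every value above 0 was a whole multiple, within 0.1 reads, of the smallest step of its library, and this step put the depth at 25.9 to 33.9 M reads (M, 1000000) in ob/ob and 13.4 to 22.8 M in wt at 9 weeks, and at 44.0 to 98.1 M in ob/ob and 9.08 to 39.0 M in wt at 14 weeks. The listed miRNAs summed to 230785 to 250422 RPM in ob/ob and 297668 to 358621 RPM in wt at 9 weeks, and to 272979 to 333502 RPM in ob/ob and 147387 to 353829 RPM in wt at 14 weeks. The lowest of these sums was in wt replicate 1 of 14 weeks. Because of these unequal sums, values after median-ratio rescaling of the libraries are given beside the deposited scale where they change a call. The 2 ages were deposited as separate tables, so levels set side by side across ages are descriptive.

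miR-146b-5p was higher in ob/ob Kupffer cell libraries at both ages, 7.27-fold at 9 weeks and 3.45-fold at 14 weeks. At 9 weeks it had 364.5, 544.1 and 1027 RPM in ob/ob libraries, against 120.5, 42.8, 49.5 and 163.7 RPM in wt libraries. The values at 14 weeks were 205.1, 226.0, 248.7 and 495.0 RPM in ob/ob libraries, against 100.2, 52.9, 53.0 and 140.4 RPM in wt libraries. Every ob/ob library lay above every wt library at both ages, the nearest being ob/ob replicate 1 and wt replicate 4 at 14 weeks. The reads behind these values numbered from 574 to 34825 per library, so counting error is small beside the spread between libraries.

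The means of miR-146b-5p were 645.3 ± 342.8 RPM in ob/ob (SD, n = 3) and 94.1 ± 58.2 RPM in wt (SD, n = 4) at 9 weeks. The log2 fold change was 2.86 ± 0.57 (SE, limma with Benjamini-Hochberg adjusted p = 0.00917), and the 95% interval of the fold change ran from 2.84 to 18.6. At 14 weeks they were 293.7 ± 135.4 RPM in ob/ob and 86.6 ± 42.2 RPM in wt (SD, n = 4 each), which gave a log2 fold change of 1.79 ± 0.42 (SE, adjusted p = 0.0175 by limma) and an interval from 1.81 to 6.59. At 9 weeks 67 of 179 miRNAs tested passed the threshold of 0.05 (37.4%), but only 9 of them were higher in ob/ob (5.03%), and miR-146b-5p had the second highest fold change of the 179. At 14 weeks 26 of 171 passed (15.2%), 20 of them higher in ob/ob (11.7%), and miR-146b-5p ranked 9th. All ob/ob libraries lay above all wt libraries for 7.26% of the miRNAs tested at 9 weeks and for 22.2% at 14 weeks. In bulk RNA of this kind, a change in the share of a cell type and a change in RNA per cell cannot be told apart.

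The call at 9 weeks held in each fit with 1 library left out. At 14 weeks the call ended without ob/ob replicate 3 (limma adjusted p = 0.05005), without wt replicate 3 (limma adjusted p = 0.0629) and after rescaling with a GC correction (limma adjusted p = 0.0942). Within sequencing lanes at 14 weeks, with 2 libraries against 2, the log2 fold change was 1.56 in lane 1 (limma adjusted p = 0.419) and 2.02 in lane 2 (limma adjusted p = 0.0754). All libraries of 9 weeks were in lane 2.

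miR-146a-5p was the more abundant paralogue in every library, and its genotypes overlapped at both ages. At 9 weeks it had 2246, 4904 and 4088 RPM in ob/ob libraries, against 2172, 678.6, 824.3 and 2659 RPM in wt libraries. Its values at 14 weeks were 1365, 1063, 1781 and 1577 RPM in ob/ob libraries, against 1301, 755.5, 911.0 and 2513 RPM in wt libraries. The highest wt library, replicate 4 at each age, lay above the lowest ob/ob library at 9 weeks and above all ob/ob libraries at 14 weeks. By abundance, miR-146a-5p ranked between 12th and 19th of the 248 miRNAs in ob/ob and between 22nd and 35th in wt at 9 weeks. The ranks at 14 weeks overlapped, with 23rd to 27th in ob/ob and 21st to 31st in wt.

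The means of miR-146a-5p at 9 weeks were 3746 ± 1361 RPM in ob/ob (SD, n = 3) and 1583 ± 983 RPM in wt (SD, n = 4). The log2 fold change of 1.41 ± 0.56 did not pass on the deposited scale (limma adjusted p = 0.0882), although the unadjusted 95% interval of the fold change, 1.06 to 6.62, excluded 1. After rescaling it was 1.92 (limma adjusted p = 0.0435), a scale on which 38 of 177 miRNAs passed (21.5%), 20 of them higher in ob/ob (11.3%), and it was 1.74 without wt replicate 4 (limma adjusted p = 0.0389). Rescaling with a GC correction gave 1.79, which did not pass (limma adjusted p = 0.0526). The median of all 179 log2 fold changes was -0.51 as deposited, and miR-146a-5p stood 7th from the top. At 14 weeks the means were 1447 ± 307 RPM in ob/ob and 1370 ± 796 RPM in wt (SD, n = 4 each). The log2 fold change of 0.21 ± 0.38 did not pass (limma adjusted p = 0.762), and its interval of 0.642-fold to 2.10-fold leaves room for a change in either direction. Its sign turned after rescaling (-0.0034).

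**Figure D1:**
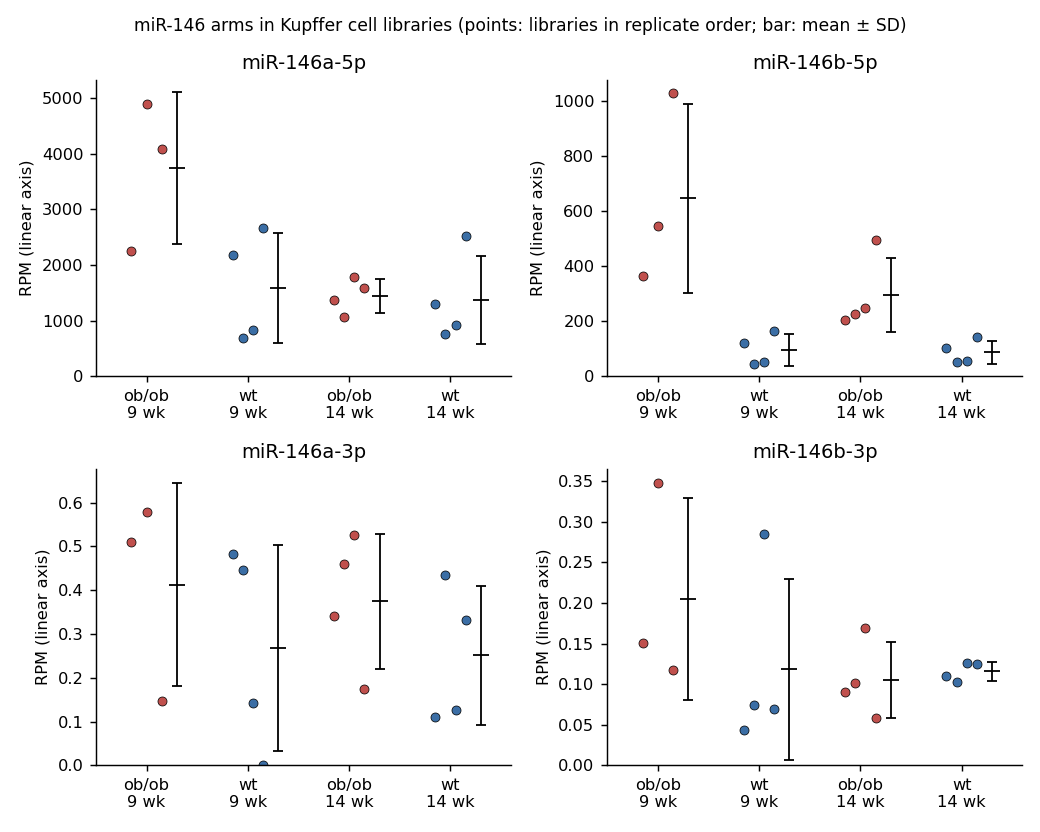
Level of each miR-146 arm in RPM (linear axes that start at 0) in ob/ob and wt libraries of 9 and 14 weeks. Points are libraries and bars the mean ± SD (n = 3 for ob/ob at 9 weeks, otherwise n = 4). The ob/ob points of miR-146b-5p lie above all wt points of the same age, from 364.5 RPM upwards at 9 weeks and from 205.1 RPM upwards at 14 weeks, while the 3p arms stay under 1 RPM.

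Set in order by group mean, miR-146a-5p ran from ob/ob at 9 weeks over wt at 9 weeks and ob/ob at 14 weeks to wt at 14 weeks, and the ranges of all neighbours in that order overlapped. miR-146b-5p ran from ob/ob at 9 weeks over ob/ob at 14 weeks and wt at 9 weeks to wt at 14 weeks. Its ob/ob ranges overlapped each other and its wt ranges overlapped each other, while the ob/ob range at 14 weeks lay above the wt range at 9 weeks. For both 5p arms the difference between ob/ob and wt was smaller at 14 weeks than at 9 weeks. For neither arm did this decrease pass after adjustment. The interaction of genotype and age, taken as the log2 fold change at 14 weeks minus that at 9 weeks, was -1.08 ± 0.72 for miR-146b-5p (SE, limma adjusted p = 0.354) and -1.19 ± 0.68 for miR-146a-5p (SE, limma adjusted p = 0.271). By limma 0 of 187 miRNAs passed in this test (0%), with 48 at an unadjusted p under 0.05.

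The balance between the paralogues lay apart in the genotypes at both ages, and this ratio within a library does not depend on the library's total. miR-146a-5p exceeded miR-146b-5p 6.16, 9.01 and 3.98 times in the ob/ob libraries of 9 weeks, against 18.0, 15.9, 16.6 and 16.2 times in the wt libraries. At 14 weeks the ratio was 6.66, 4.70, 7.16 and 3.19 in ob/ob libraries, against 13.0, 14.3, 17.2 and 17.9 in wt libraries. The ob/ob and wt ratios did not overlap at either age, nor across the ages, with 3.19 to 9.01 over 7 ob/ob libraries and 13.0 to 18.0 over 8 wt libraries. Put as a share, miR-146b-5p made up 9.99% to 20.1% of the summed 5p arms in ob/ob and 5.26% to 5.93% in wt at 9 weeks. At 14 weeks the share was 12.3% to 23.9% in ob/ob and 5.29% to 7.15% in wt.

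The mean log2 ratio was 2.59 ± 0.59 in ob/ob (SD, n = 3) and 4.05 ± 0.08 in wt (SD, n = 4) at 9 weeks, a difference of -1.45 (two-sided exact permutation p = 0.0286). At 14 weeks it was 2.37 ± 0.53 in ob/ob and 3.94 ± 0.22 in wt (SD, n = 4 each), a difference of -1.57 (exact permutation p = 0.0286). This p is the smallest that either design can give, and adjusted over the 8 ratio tests made (4 ratios at 2 ages) it was 0.0571, so neither passed 0.05. Leaving out any 1 library kept the difference between -1.74 and -1.15 at 9 weeks and between -1.73 and -1.34 at 14 weeks. Within lanes at 14 weeks it was -1.28 in lane 1 and -1.87 in lane 2 (exact permutation p = 0.333 each, the smallest that 2 against 2 can give).

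**Figure D2:**
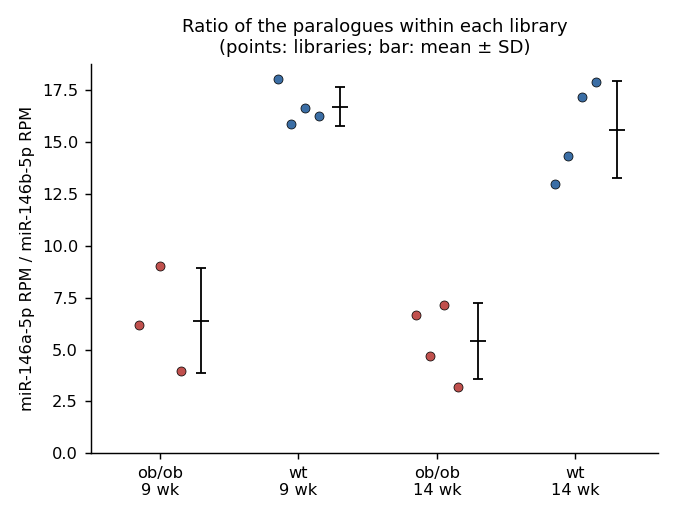
Ratio of miR-146a-5p to miR-146b-5p (RPM over RPM, linear axis from 0) within each ob/ob and wt library of 9 and 14 weeks. Points are libraries and bars the mean ± SD (n = 3 for ob/ob at 9 weeks, otherwise n = 4). The ob/ob ratios, at most 9.01, lie below the wt ratios, at least 13.0.

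The wt libraries differed widely in the amount of the family while its composition varied little. The summed 5p arms ran from 721.4 to 2823 RPM over the wt libraries of both ages, a 3.91-fold range, whereas the ratio of the paralogues varied 1.39-fold. In ob/ob the sum ran from 1289 to 5448 RPM, a 4.23-fold range, and the ratio varied 2.83-fold. A read that ends before base 18 fits both 5p arms, and no source used here gives how such reads were assigned. Their part in the ratio and in the correlation of the paralogues was not tested. Within wt, log2 levels of the paralogues correlated with Pearson's r of 0.981 (n = 8, exact permutation p = 7.44e-05, adjusted over 2 relations 0.000149) and Spearman's rho of 0.976 (exact permutation p = 0.000397, adjusted 0.000794). Without the 2 libraries farthest from the median, replicate 4 of each age, r was 0.959. Within ob/ob, r was 0.800 (n = 7, exact permutation p = 0.0312, adjusted 0.0312) and rho 0.821 (exact permutation p = 0.0341, adjusted 0.0341). Without the 2 farthest, ob/ob replicates 2 and 3 of 9 weeks, r was 0.508 over 5 libraries, so the ob/ob relation rests on those libraries. These relations span tables normalized separately, and each age alone holds fewer than the 6 libraries needed for a value of its own. The permutations exchanged libraries across the ages. In ob/ob both arms had higher means at 9 weeks than at 14 weeks (miR-146a-5p 3746 against 1447 RPM, miR-146b-5p 645.3 against 293.7 RPM). The ob/ob p-values therefore do not separate a shift between the ages from a relation between libraries.

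**Figure D3:**
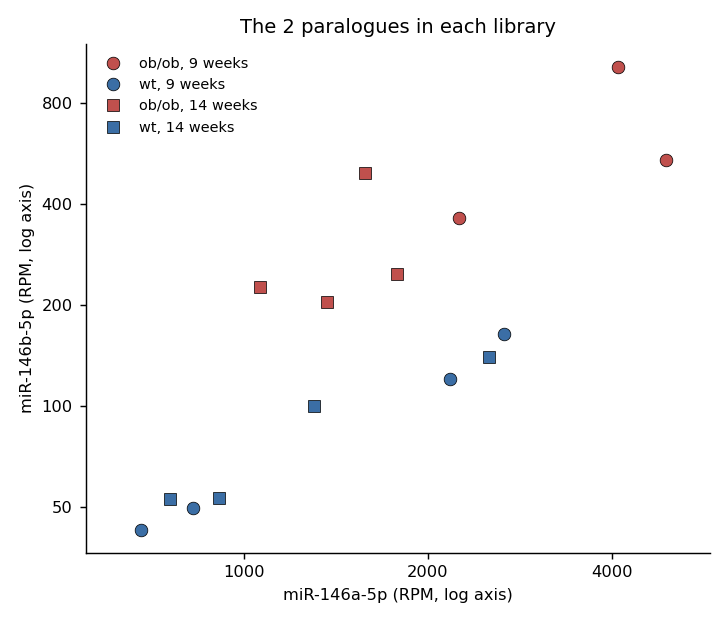
miR-146b-5p against miR-146a-5p in each library (RPM, log axes), with circles for 9 weeks, squares for 14 weeks, red for ob/ob and blue for wt. The 8 wt points follow one line (r = 0.981), and the 7 ob/ob points lie above it.

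The 3p arms were near the limit of detection, under 1 RPM in every library, and did not enter the test on the filtered table. miR-146a-3p, the passenger arm of miR-146a, was counted 17, 15 and 5 times in ob/ob libraries of 9 weeks, against 11, 6, 2 and 0 times in wt libraries. At 14 weeks it was counted 15, 45, 31 and 9 times in ob/ob, against 1, 17, 3 and 8 times in wt. miR-146b-3p was counted 5, 9 and 4 times in ob/ob and 1, 1, 4 and 1 times in wt at 9 weeks. Its counts at 14 weeks were 4, 10, 10 and 3 in ob/ob and 1, 4, 3 and 3 in wt. Every ob/ob library was deeper than every wt library of its age, so these counts need their depth beside them.

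Summed over the libraries of a group and divided by their depth, miR-146a-3p was 1.35 times as high in ob/ob as in wt at 9 weeks (37 and 19 reads, exact 95% interval 0.757 to 2.49) and 1.31 times at 14 weeks (100 and 29 reads, 0.858 to 2.05). For miR-146b-3p the ratio was 1.78 at 9 weeks (18 and 7 reads, 0.711 to 5.05) and 0.931 at 14 weeks (27 and 11 reads, 0.447 to 2.08). All 4 intervals include 1. They take the reads recovered from the step as counts and sum them over a group, so they leave out the spread between libraries. Reads without molecular identifiers are not independent molecules, so the intervals may be too narrow for counting error as well. Single libraries weighed on these ratios. Leaving out wt replicate 3, which held 4 of the 7 wt reads, raised the miR-146b-3p ratio at 9 weeks to 3.25 (0.9502 to 17.2). For miR-146a-3p the ratio was 1.84 without ob/ob replicate 3 (1.01 to 3.43) and 2.08 without wt replicate 1 (0.952 to 5.16) at 9 weeks, and 1.88 without wt replicate 2 at 14 weeks (1.03 to 3.75). With all libraries, a difference between the genotypes in either 3p arm was not detectable at this depth.

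The 5p arm exceeded the 3p arm by orders of magnitude in both hairpins. For miR-146a the excess in reads was 4400 to 27714 times in ob/ob and, in the 3 wt libraries with any 3p read, 1518 to 5800 times in wt at 9 weeks. The excess at 14 weeks was 2317 to 9025 times in ob/ob and 1734 to 11809 times in wt, so the genotypes overlapped at both ages. For miR-146b the excess was 1565 to 8706 times in ob/ob and 174.3 to 2745 times in wt at 9 weeks, with overlap. At 14 weeks it was 1467 to 8500 times in ob/ob and 419 to 1127 times in wt, without overlap. How reads were assigned to arms is not given, and its part in these ratios was not tested. Another arm was near 0 beside its abundant opposite arm. In ob/ob at 9 weeks miR-142a-3p was at most 0.150 RPM, beside at least 2060 RPM of miR-142a-5p.

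With 0.5 RPM added to both arms, the log2 ratio of miR-146b-5p to miR-146b-3p was higher in ob/ob by 2.67 at 9 weeks and by 1.82 at 14 weeks (exact permutation p = 0.0286 each, adjusted 0.0571 over the 8 tests). The added 0.5 RPM exceeds every miR-146b-3p value, so this ratio mostly follows the 5p arm. Without it, the difference was 1.84 at 9 weeks (exact permutation p = 0.257) and 2.03 at 14 weeks (exact permutation p = 0.0286). The same ratio for miR-146a differed by 1.14 at 9 weeks (exact permutation p = 0.229) and by -0.01 at 14 weeks (exact permutation p = 1). The ratio of the 3p arms to each other differed by 0.08 at 9 weeks (exact permutation p = 0.886) and by 0.25 at 14 weeks (exact permutation p = 0.229). The 3p arms reached at most 0.579 RPM, so the added 0.5 RPM draws their ratio towards equality. Without it, that ratio differed by -0.74 at 9 weeks and by 0.95 at 14 weeks (exact permutation p = 0.7 and 0.171). The miR-146a ratio then differed by 1.57 at 9 weeks and by -0.49 at 14 weeks (exact permutation p = 0.3 and 0.543). These values at 9 weeks leave out wt replicate 4, which had 0 miR-146a-3p reads.

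The nearest miRNAs in pattern were sought by Pearson's r of log2 levels over the 15 libraries, among 114 miRNAs with a mean of at least 10 RPM. They are given as a description, since the libraries share genotype, age and depth. Nearest to miR-146a-5p were miR-122-5p (r = 0.876), the main hepatocyte miRNA, miR-184-3p (r = 0.837) and miR-146b-5p (r = 0.801), followed at a distance by miR-194-5p (r = 0.542) and miR-192-5p (r = 0.536). Nearest to miR-146b-5p were miR-192-5p (r = 0.892), abundant in hepatocytes, miR-122-5p (r = 0.861), miR-34a-5p (r = 0.842), miR-184-3p (r = 0.815) and miR-146a-5p (r = 0.801). After the group means were taken out, r with miR-122-5p was 0.770 for miR-146a-5p and 0.851 for miR-146b-5p, and r between the paralogues was 0.857.

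Among the replicates of a group, miR-122-5p tended to be high where the miR-146 5p arms were high, but between the genotypes the hepatocyte miRNAs and the 5p arms did not all go together. miR-122-5p had 113.1, 157.6 and 227.9 RPM in ob/ob libraries of 9 weeks, against 73.1, 18.4, 24.2 and 69.4 RPM in wt libraries. Its levels at 14 weeks were 48.8, 36.9, 54.3 and 79.4 RPM in ob/ob, against 100.7, 20.2, 15.2 and 50.6 RPM in wt. In wt, replicates 1 and 4 were the higher pair at each age for miR-122-5p and for both miR-146 5p arms. At 14 weeks miR-122-5p overlapped between the genotypes, with its highest value in wt replicate 1, while miR-146b-5p did not overlap. The log2 fold change of miR-122-5p at that age, 0.57, did not pass (limma adjusted p = 0.551), whereas that of miR-192-5p was 1.94 (limma adjusted p = 0.00256), beside 1.79 for miR-146b-5p and 0.21 for miR-146a-5p. The value of miR-122-5p depended on single libraries. It was 1.06 without wt replicate 1 (limma adjusted p = 0.103) and 0.17 without wt replicate 3 (limma adjusted p = 0.891). Within lanes it was -0.09 in lane 1 and 1.22 in lane 2.

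**Figure D4:**
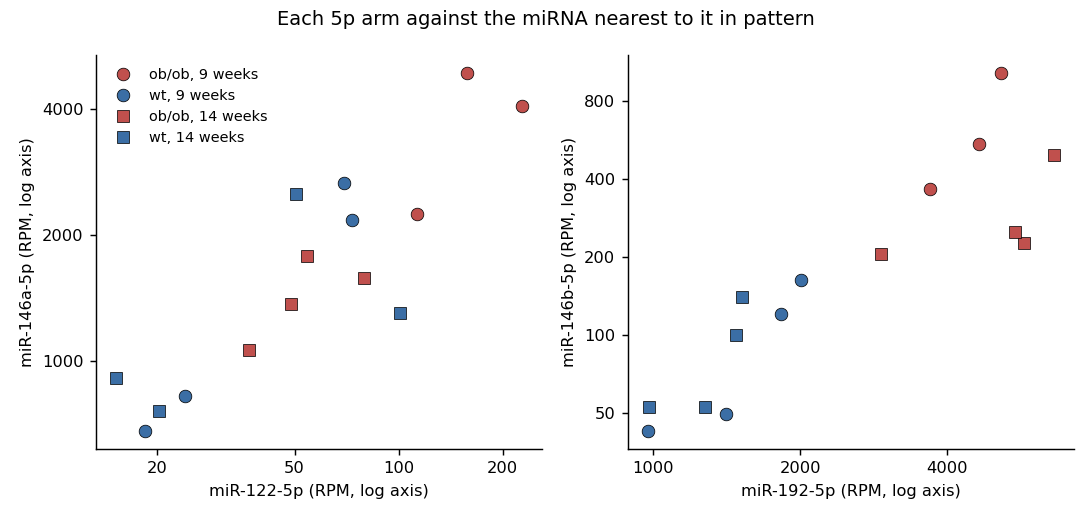
Each miR-146 5p arm against the miRNA nearest to it in pattern, miR-146a-5p with miR-122-5p on the left and miR-146b-5p with miR-192-5p on the right (RPM, log axes, 1 point per library, red for ob/ob and blue for wt). Both pairs rise together over the 15 libraries (r = 0.876 and r = 0.892).

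The whole hepatocyte list (miR-122-5p, miR-122-3p, miR-192-5p and miR-194-5p) summed to 3966 to 5524 RPM in ob/ob and 1100 to 2222 RPM in wt at 9 weeks, and to 3169 to 6899 RPM in ob/ob and 1099 to 1689 RPM in wt at 14 weeks, with 2 of its 3 tested members higher in ob/ob by limma at each age, miR-192-5p at both, where 5.03% of all miRNAs were higher at 9 weeks and 11.7% at 14 weeks. After rescaling 3 of 3 were higher at 9 weeks, with miR-194-5p added (limma adjusted p = 0.0238), and 1 of 3 at 14 weeks, with miR-194-5p lost (limma adjusted p = 0.120). The second was miR-122-5p at 9 weeks, whose call ended without ob/ob replicate 2 or 3 (limma adjusted p = 0.0717 and 0.0964), and miR-194-5p at 14 weeks, whose call ended without any 1 of 6 of the 8 libraries (limma adjusted p = 0.0730 to 0.128). The erythroid miR-144-5p had 14.7 to 21.7 RPM in ob/ob and 0.522 to 1.49 RPM in wt at 9 weeks, and 11.6 to 32.4 RPM in ob/ob and 0.331 to 0.974 RPM in wt at 14 weeks. It was the only 1 of the 3 erythroid miRNAs sought that was listed, with miR-144-3p and miR-451a absent. The neutrophil marker miR-223-3p was not listed either, so neutrophils could not be assessed. The 3 lymphocyte miRNAs (miR-150-5p, miR-181a-5p and miR-181b-5p), of which 0 passed by limma at either age, summed to 4935 to 6729 RPM in ob/ob and 7421 to 7649 RPM in wt at 9 weeks, and to 5752 to 7982 RPM in ob/ob and 5075 to 8207 RPM in wt at 14 weeks, with overlap. Of the macrophage and haematopoietic list, miR-142a-5p and miR-511-3p were present throughout. Of these 2, miR-511-3p was lower in ob/ob at 9 weeks (-1.07, limma adjusted p = 0.00984), where 32.4% of all miRNAs tested were lower. Rescaling ended this call (limma adjusted p = 0.0860), and 0 of 2 passed at 14 weeks. miR-142a-3p, which is usually abundant in blood-derived cells, was at 0.159 to 18.6 RPM in ob/ob and at most 0.0844 RPM in wt at 14 weeks, and at most 0.150 RPM in ob/ob and 0.149 RPM in wt at 9 weeks. The 3 together summed to 2139 to 3272 RPM in ob/ob and 3144 to 4465 RPM in wt at 9 weeks, and to 2386 to 4026 RPM in ob/ob and 1833 to 2917 RPM in wt at 14 weeks.

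Markers of other liver cells also held calls, to be read beside the shares over all miRNAs tested. As deposited, 32.4% of all miRNAs were lower in ob/ob at 9 weeks and 11.7% were higher at 14 weeks. After rescaling, 10.2% were lower and 11.3% higher at 9 weeks, and 15.5% were higher at 14 weeks. The 2 endothelial miRNAs (miR-126a-3p and miR-126a-5p) summed to 18455 to 45923 RPM in ob/ob and 42296 to 59286 RPM in wt at 9 weeks, with miR-126a-3p lower by limma (adjusted p = 0.0230), a call that rescaling ended (adjusted p = 0.273). At 14 weeks they summed to 33631 to 55779 RPM in ob/ob and 10833 to 63153 RPM in wt, and 0 of 2 passed by limma. There miR-126a-3p alone ran from 0 to 3733 RPM in ob/ob and from 747.4 to 3780 RPM in wt. Its log2 fold change, -3.03 ± 2.95 (SE), was poorly determined. Of the 5 stellate and mesenchymal miRNAs, 4 were tested, and their list summed to 934.3 to 1567 RPM in ob/ob and 1380 to 1800 RPM in wt at 9 weeks and to 1347 to 2668 RPM in ob/ob and 494.9 to 1860 RPM in wt at 14 weeks. At 9 weeks miR-199a-3p (-1.55, limma adjusted p = 0.00525) and miR-214-3p (-0.91, limma adjusted p = 0.0379) were lower, and after rescaling miR-199a-3p alone was (limma adjusted p = 0.0371). At 14 weeks 0 of 4 passed as deposited and miR-143-3p was higher after rescaling (limma adjusted p = 0.0488). The 4 biliary and epithelial miRNAs summed to 54.4 to 87.3 RPM in ob/ob and 51.5 to 71.1 RPM in wt at 9 weeks, and to 53.0 to 103 RPM in ob/ob and 22.7 to 56.4 RPM in wt at 14 weeks. Among them miR-141-3p was higher at 14 weeks (1.20, limma adjusted p = 0.0495), and after rescaling at both ages (limma adjusted p = 0.0435 at 9 weeks and 0.0457 at 14 weeks). The part of other cells in the miR-146 differences was not tested.

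The other miRNAs known to be induced by NF-κB and Toll-like receptor signals, or to act on them, gave no rise past the threshold at 9 weeks and 1 at 14 weeks. Of the 23 on the list, 17 were in the tables and 13 were tested at each age. At 9 weeks 0 were higher in ob/ob and 5 were lower by limma on the deposited scale, where 32.4% of all miRNAs tested were lower, around a median log2 fold change of -0.58 beside -0.51 for all miRNAs. The 5 that fell were miR-125a-5p (-1.67, adjusted p = 0.00543), miR-222-3p (-1.19, adjusted p = 0.00566), miR-125b-5p (-1.21, adjusted p = 0.00698), miR-511-3p (-1.07, adjusted p = 0.00984) and miR-132-3p (-0.95, adjusted p = 0.0256). miR-132-3p no longer passed when ob/ob replicate 1 or 3 or wt replicate 1 or 2 was left out (limma adjusted p = 0.0671 to 0.0763). Among the 5, miR-125b-5p is known to target Tnf, and miR-132-3p is itself induced by Toll-like receptor signals. After rescaling, miR-125a-5p alone of these stayed past the threshold (limma adjusted p = 0.0316), on a scale where 10.2% of all miRNAs were lower.

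At 14 weeks 1 of the 13 was higher in ob/ob and 0 were lower by limma, where 11.7% of all miRNAs were higher and 3.51% lower, with a median log2 fold change of 0.30 beside 0.20 for all miRNAs. The one that rose was miR-155-5p, a miRNA strongly induced by Toll-like receptor signals in macrophages, with 18.9 ± 4.40 RPM in ob/ob and 7.54 ± 3.11 RPM in wt (SD, n = 4 each) and a difference of 1.31 ± 0.32 on the log2 scale (SE, adjusted p = 0.0201 by limma). This call ended without ob/ob replicate 2 (limma adjusted p = 0.0780) or 3 (0.05005), and without wt replicate 3 (0.0580) or 4 (0.0620). At 9 weeks miR-155-5p had 14.3 ± 5.70 RPM in ob/ob and 9.19 ± 4.27 RPM in wt, and did not pass (limma adjusted p = 0.221). Its log2 fold change at 9 weeks was 0.63 as deposited. After rescaling it was 1.11 at 9 weeks, which did not pass (limma adjusted p = 0.0810), beside 1.10 at 14 weeks. After rescaling at 14 weeks, miR-155-5p passed (limma adjusted p = 0.0192), and 3 others were lower, namely miR-125a-5p (adjusted p = 0.00794), miR-222-3p (adjusted p = 0.0164) and miR-125b-5p (adjusted p = 0.0457). On the rescaled values 48 of 168 miRNAs passed (28.6%), 15.5% higher and 13.1% lower in ob/ob. Another member of the list, miR-21a-5p, fell just short at 14 weeks as deposited (0.88 ± 0.27, SE, limma adjusted p = 0.0535). It passed with lane as a covariate (limma adjusted p = 0.0423) and did not pass after rescaling (0.66, limma adjusted p = 0.0776).

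**Figure D5:**
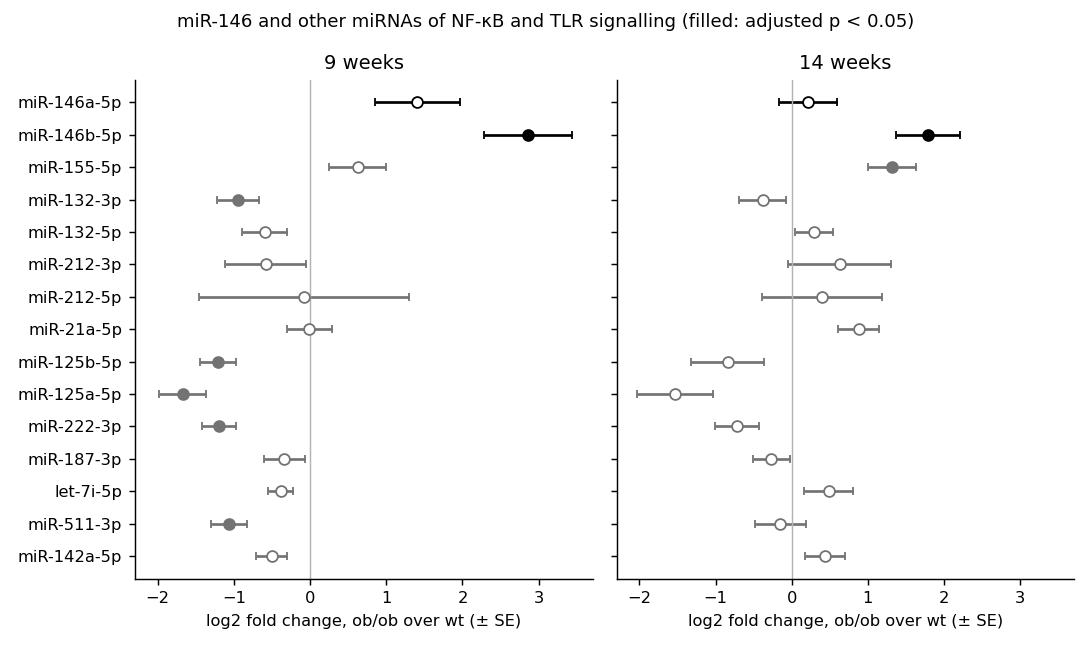
Log2 fold change of ob/ob over wt (± SE, limma on log2 of RPM + 0.5) at 9 and 14 weeks for the miR-146 5p arms, in black, and the 13 tested miRNAs of the NF-κB and Toll-like receptor list, in grey. Filled points passed an adjusted p of 0.05, which miR-146b-5p did at both ages and miR-146a-5p at neither.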

How the data were processed

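Small RNA libraries of Kupffer cells were made with a TruSeq kit and sequenced on an Illumina HiSeq, per the labels' protocols. Per the submitters' processing notes, the tools included cutadapt and bcl2fastq, and builds mm10 and GRCm38.p5 are named. No source used here gives the aligner, counter, miRNA annotation or denominator. The deposited values, 1 table per age, were taken as RPM computed by the authors, a unit inferred from the values. All values were whole multiples of the worth of 1 read (tolerance 0.1 reads), which gave depths and read numbers. The low values, on which recovery of whole reads is checked, were too few for that check to be met, so no count model was fitted. Only the summed reads of the 3p arms were compared as counts, with exact intervals that depend on the step, and the design's provision for normalized values applied.

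log2(RPM + 0.5) was tested for each age with limma 3.58.1 in R 4.3.3 (trend, robust, Benjamini-Hochberg over all miRNAs tested, threshold 0.05), on miRNAs that reached 1 RPM in at least 3 libraries (9 weeks and interaction) or 4 (14 weeks), the size of the smallest group. Fold changes on this scale understate changes of rare miRNAs. The interaction used all 15 libraries. Ratios within a library were compared by two-sided exact permutation tests. The named miRNAs were the 4 arms, the 5 nearest in pattern to each 5p arm, members of the pathway list that passed and the cell type marker lists. Values of miR-155-5p at 9 weeks and of miR-21a-5p at 14 weeks were added after they were seen. The members and lists were chosen with earlier results of these data known. Alternatives were rescaling, GC correction (GC known for 87.9% of miRNAs), other pseudocounts, no filter, plain limma, lanes, a replicate block and leaving out libraries. The scripts were tested on simulated data.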

Additional observations from a re-analysis of the deposited data

Results flagged for a closer look

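Over 24 sets of 4 libraries (4 arms and 4 ratios, each in 3 groups), 3 values stood apart from the rest of their group by Dixon's test, which flags about 1 in 20 sets by chance. miR-146b-5p was at 495.0 RPM in ob/ob replicate 4 of 14 weeks, above 205.1, 226.0 and 248.7 RPM in the other ob/ob libraries. The log2 ratio of miR-146b-5p to miR-146b-3p was highest in the same library, at 9.79. miR-146b-3p was at 0.284 RPM in wt replicate 3 of 9 weeks, which stands for 4 reads, against 1 read in each of the other wt libraries of that age.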

How the results depend on the processing

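The call of miR-146b-5p at 9 weeks held under every alternative run, with log2 fold changes of 2.46 to 3.21 when 1 library was left out. At 14 weeks it ended with rescaling and GC correction (1.36), in lane 1 alone (1.56) and in lane 2 alone (2.02), and ranged from 1.504 to 2.06 with 1 library left out. miR-146a-5p at 9 weeks passed after rescaling (1.92) and ranged from 1.08 to 1.74 with 1 library left out. It did not pass after rescaling with GC correction (1.79, limma adjusted p = 0.0526) or with a replicate block (1.74, limma adjusted p = 0.137). At 14 weeks its sign turned after rescaling (-0.0034), after rescaling with GC correction (-0.21) and without wt replicate 2, over a range of -0.018 to 0.56. The count of miRNAs called at 9 weeks was 38 after rescaling, 39 with GC correction and 53 to 71 with 1 library left out, beside 67. At 14 weeks it was 48 after rescaling, also without wt replicate 1 (chosen after seeing the data), 1 in lane 1, 51 in lane 2 and 13 to 46 with 1 library left out, beside 26. The interaction gave 4 without a filter and 0 to 3 with 1 library left out. The ratio of the 3p arms at 9 weeks turned to -0.74 without a pseudocount and ranged from -0.11 to 0.27 with 1 library left out. The ratio of miR-146a-5p to miR-146a-3p at 14 weeks turned to 0.0765 with a pseudocount of 1 and 0.0324 in lane 1, over a range of -0.36 to 0.28. Deviations of same-numbered replicates from their group means correlated with r of -0.144 to 0.275 at 9 weeks and -0.228 to 0.178 at 14 weeks. So few pairs cannot decide whether the numbers pair the libraries, and the labels do not say. With a replicate block, which drops wt replicate 4 of 9 weeks, 34 miRNAs were called at 9 weeks, 22 at 14 weeks and 2 in the interaction, and miR-146b-5p had log2 fold changes of 3.20 and 1.79 (limma adjusted p = 0.0279 and 0.0243). The rate ratios of the 3p reads with 1 library left out, added after seeing the data, ran from 1.05 to 2.08 at 9 weeks and 1.10 to 1.88 at 14 weeks for miR-146a-3p, and from 1.24 to 3.25 and 0.765 to 1.04 for miR-146b-3p. The cause of these shifts was not tested. Depth limits the 3p arms, with 0 to 45 reads per library.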
